A study of Mus musculus with 7 samples.

Results

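Malat1 is a long noncoding RNA of the cell nucleus, and it was 1 of 13218 genes with reverse transcription (RT) stops in these data. The gene was found by its symbol in the tables of RT stops, which listed 5 transcripts of it among the 26792 that were in the annotation. CIRS-seq places a stop where reverse transcriptase halts next to a chemically modified base, so the count of stops along an RNA reports which bases could be reached by the reagent. Lysates of E14 mouse embryonic stem cells (ESCs, strain 129/Ola, kept in LIF on gelatin) were treated with Proteinase K to remove protein. They were then treated with dimethyl sulfate (DMS), which methylates unpaired adenine and cytosine, or with CMCT, which reacts with unpaired uracil and, less, guanine. The DMS libraries pooled RNA treated at 50, 100, 150 and 200 mM and the CMCT libraries RNA treated at 10, 20, 25 and 50 mM. The non-treated (NT) libraries pooled the 0 mM aliquots of both buffers, so each treatment was compared with a control that was kept partly in the other buffer. There were 2 biological replicates of each treatment. All RNA was depleted of ribosomal RNA and primed with random hexamers. A single RNA-seq library came from the same line, from ribosome-depleted RNA extracted directly in TRIzol. Because Proteinase K was applied before probing, the stops are meant to describe the RNA without bound protein. How much protein remained was not tested.

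Malat1 RNA collects in nuclear speckles, the bodies in which splicing factors are stored, and is among the most abundant long noncoding RNAs of many mammalian cells. It has no poly(A) tail. RNase P cuts the nascent RNA just upstream of a tRNA-like element, RNase Z cuts behind that element, and the small cytoplasmic RNA released is called mascRNA. The new 3′ end of Malat1 is protected by an adenine-rich tract that forms a triple helix with uracil-rich motifs upstream of it.

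In the annotation of the mm9 genome, Malat1 (ENSMUSG00000092341, processed transcript) lies on the minus strand of chromosome 19 at chr19:5795690-5802671. The gene is covered without a gap by 1 unspliced transcript of 6982 nt, so every position below is counted from the annotated 5′ end of that transcript. The other 4 transcripts have 2 exons each. Adenine makes up 28.6% of the positions, uracil 28.9%, guanine 25.4% and cytosine 17.1%. At 6779 positions the 25 bases that begin there occur once in mm9. At 179 positions they occur more often, and 129 of these form 1 block from position 554 to 682 (chr19:5801990-5802118), where a typical 25-mer has 250 or more copies. Reads that start in this block cannot be assigned to Malat1 with certainty. The remaining 24 positions lie at the very 3′ end.

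The 6 libraries held between 140186204 and 247369982 RT stops with each genomic position taken once per gene. Each of these totals is larger than the number of reads that the authors report per treatment. Some reads were therefore counted at more than a single place, and shares of a library total rest on such counts. How many reads this concerns was not tested. Malat1 had 41415 and 24029 stops in the NT replicates, 64712 and 44177 in DMS, and 70035 and 48461 in CMCT. The count per base was 5.93 and 3.44 in NT, 9.27 and 6.33 in DMS, and 10.0 and 6.94 in CMCT. By stops per base Malat1 ranked between 2722 and 3936 of the 13218 genes. Counted at positions found once alone, it ranked between 134 and 322 among 9279 genes that have at least 200 such positions. These ranks are over a smaller set of genes, and the rank by all stops within that set was not counted. Of the stops of Malat1, 87.4% and 79.2% in NT, 92.5% and 90.02% in DMS, and 89.2% and 89.8% in CMCT were at positions found once. The repeated block alone took 12.1% and 20.3% of the stops in NT, 6.88% and 9.29% in DMS, and 10.2% and 9.45% in CMCT.

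No difference in the number of RT stops on Malat1 between treatments passed the test. After TMM scaling the level was 259 and 200 CPM (counts relative to the library total) in NT, 333 and 236 in DMS, and 277 and 319 in CMCT. The DMS replicates overlapped the NT range and the CMCT replicates did not. The NT mean was 230 ± 41.9 CPM (SD, n = 2), the DMS mean 284 ± 68.6 and the CMCT mean 298 ± 29.6. The log2 fold change was 0.31 ± 0.38 (SE) for DMS over NT, with an adjusted p of 0.58 in edgeR's quasi-likelihood test over 13216 genes. It was 0.38 ± 0.38 for CMCT over NT (adjusted p = 0.50 in the same fit), where the median of all genes was itself 0.11. DMS minus CMCT was -0.07 ± 0.38 (adjusted p = 0.94), and the sign of this value changed with the scaling. In the same tests, 13.8% of all genes were higher and 12.5% lower in DMS than in NT, 15.0% were higher and 13.9% lower in CMCT than in NT, and 2.47% were higher and 6.79% lower in DMS than in CMCT. Without replicate 2 of NT the number of genes called went from 3485 to 1719 for DMS over NT and from 3827 to 1600 for CMCT over NT, and without replicate 1 of DMS that for DMS minus CMCT went from 1223 to 428. Without TMM the order of the libraries was different. As a share of all stops of a library, Malat1 had 228 and 147 CPM in NT, 380 and 287 in DMS, and 283 and 346 in CMCT. On that scale neither treatment overlapped NT, but it was not tested. The share of all genes without overlap was not counted on either scale.

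RNA-seq gave an independent measure of abundance, in which the share of cells with the RNA and the RNA per cell cannot be told apart. Of 31857551 alignments of 50 bases, 22286799 had their midpoint in the exons of a single gene, and 79047 of these, or 0.355%, were in Malat1. This is 11322 reads per kilobase of exon (95% exact Poisson interval 11243 to 11401, counting error only), rank 148 of 26309 genes with a read and rank 19 of the 19765 genes longer than 1000 nt. Neat1, the long noncoding RNA that builds paraspeckles and is the chromosomal neighbour of Malat1, had 54.2 reads per kilobase (51.0 to 57.4). Actb, the gene of cytoplasmic beta-actin, had 11253 reads per kilobase (11126 to 11381), an interval that overlaps that of Malat1. An antisense gene, Gm20417, overlaps positions 4123 to 5110 on the other strand. The 4841 reads in its exons were not counted for either gene, since the library does not keep the strand. Of the reads at Malat1, 48.9% aligned to the plus strand. The length of Malat1 was not reduced for the overlap, which lowers its value. With any overlap counted, Malat1 had 12015 reads per kilobase. The markers of ESCs were present: the 10 genes of that list ranged from 119 reads per kilobase for Utf1 to 7032 for Dppa5a, with 2387 for Pou5f1. The median of 14 markers of other cells was 6.18 reads per kilobase, and the highest was Vim, a filament protein of many cultured cells, with 816.

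The stops were spread unevenly along the RNA, and the RNA-seq reads did not follow them. The 66 windows of 100 nt up to position 6600 held between 163 and 3212 RNA-seq reads. Over these windows the Spearman correlation of RNA-seq reads with stops was 0.10 and 0.01 in the NT replicates, 0.02 and -0.07 in DMS and 0.02 and -0.09 in CMCT. Neighbouring windows share the same RNA molecules and reads, so these values are descriptions. RNA-seq coverage rose toward the 3′ end, from 3643 reads in the first 500 nt to 11234 between positions 5001 and 5500.

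**Figure D1:**
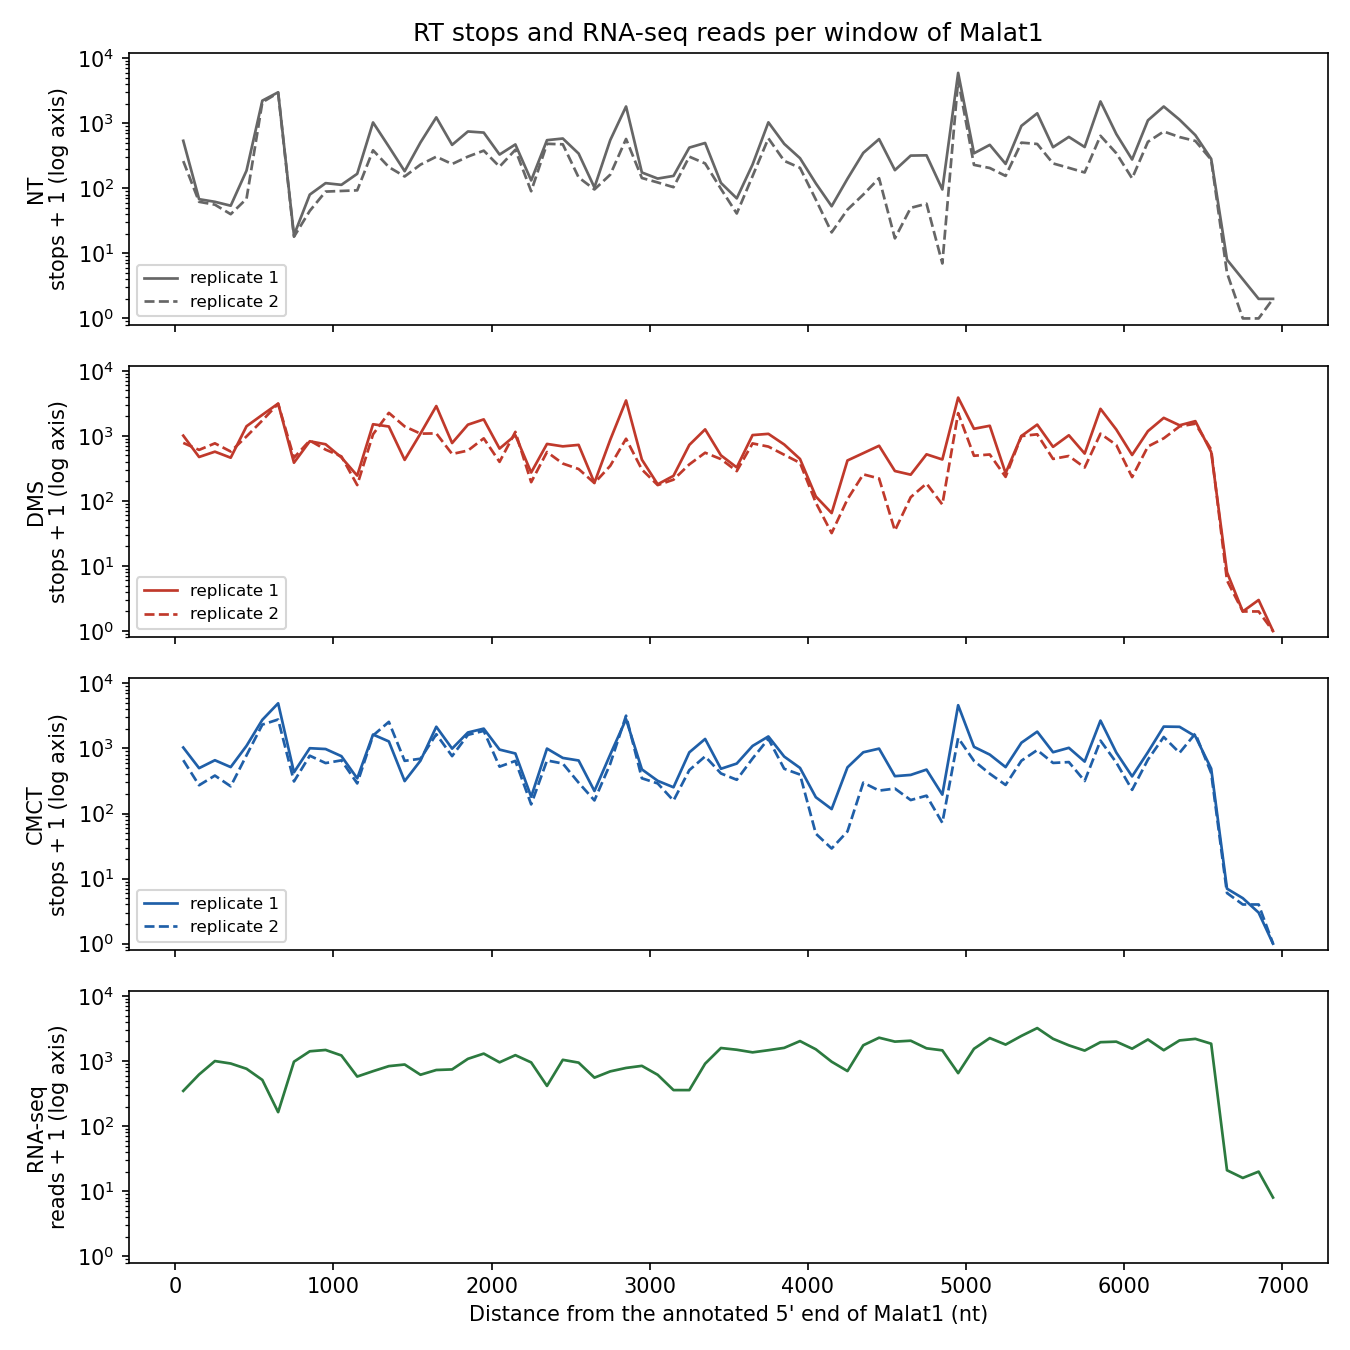
RT stops per 100 nt window of Malat1 in both replicates of NT, DMS and CMCT, and RNA-seq reads per window, each plus 1 on a log axis, against the distance from the annotated 5′ end in nt. The NT libraries peak in the repeated block near position 600 and again at 4901 to 5000, DMS and CMCT lie above NT between 101 and 500 and between 701 and 1100, where NT is low, and all 7 libraries fall to near 0 behind position 6600.

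Against NT, stops rose in a stretch near the 5′ end and in a shorter one at the middle of the RNA, with both reagents. The last 4 of 70 windows had too few stops to be tested. With DMS, 12 of the other 66 passed the adjusted p of 0.05 in edgeR, and all 12, or 18.2%, were higher than NT. Among all 155818 windows of all genes, 10.0% were higher and 7.14% lower. With CMCT, 11 windows were higher and 1 lower, or 16.7% and 1.52%, where 6.88% and 5.02% of all windows were higher and lower. In either direction together, 17.2% of all windows passed with DMS, close to the 18.2% of Malat1, and 11.9% with CMCT. The median log2 fold change over the Malat1 windows was 0.42 for DMS and 0.21 for CMCT, beside medians of 0.03 and 0.01 over all windows. Both comparisons use the same NT libraries. When 1 library is left out, its treatment has a single library, which is assumed to vary like the other treatments. Without replicate 2 of DMS edgeR then called no DMS window of any gene, while 16 windows of Malat1 (24.2%) had an unadjusted p under 0.05, beside 23.8% of all windows. The CMCT calls were likewise lost for all genes without replicate 2 of NT or replicate 2 of CMCT, with 13 and 12 windows of Malat1 (19.7% and 18.2%) at an unadjusted p under 0.05, beside 23.4% and 22.3% of all windows. At that level the share of Malat1 was thus near or below that of all windows. Without replicate 1 of CMCT 4 CMCT calls (6.06%) were left, beside 1.49% of all windows. The direction of each called window was the same in all 11 other fits with windows of 100 nt, and the log2 fold change from 701 to 800 was between 3.74 and 4.32 with DMS and between 3.21 and 3.78 with CMCT.

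The window from 701 to 800, just behind the repeated block, had the largest change. It held 18 and 17 stops in NT, 385 and 460 in DMS, and 429 and 310 in CMCT. Every treated library was far above both controls, and the log2 fold change was 4.03 ± 0.34 for DMS (adjusted p = 0.0101) and 3.50 ± 0.34 for CMCT (adjusted p = 0.0188). The next window, 801 to 900, had 79 and 44 stops in NT against 824 and 846 in DMS and 1007 and 773 in CMCT. Its log2 fold changes were 3.26 ± 0.30 for DMS and 3.02 ± 0.30 for CMCT. These are the windows richest in adenine among those named, at 48.0% and 50.0%, where the median of the tested windows was 28.0%.

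On the other side of the repeated block, the window from 201 to 300 held 61 and 55 stops in NT, 570 and 766 in DMS, and 658 and 382 in CMCT. It rose by 2.96 ± 0.35 with DMS (adjusted p = 0.0101) and by 2.22 ± 0.34 with CMCT (adjusted p = 0.0188). From 301 to 400 the counts were 53 and 39 in NT, 460 and 573 in DMS, and 516 and 261 in CMCT, with log2 fold changes of 2.95 ± 0.32 and 2.15 ± 0.31. From 401 to 500 NT had 186 and 68 stops, DMS 1403 and 979, and CMCT 1096 and 783, and the changes were 2.77 ± 0.37 and 2.10 ± 0.36. Taken from position 101 to 500, NT placed 0.886% and 0.928% of its Malat1 stops there, DMS 4.49% and 6.62%, and CMCT 3.95% and 3.50%. From 701 to 1100 the shares were 0.792% and 0.995% in NT, 3.73% and 5.43% in DMS, and 4.53% and 4.81% in CMCT. Both stretches were set by windows that had passed on the same counts, so the gap to NT follows from that choice.

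Between these stretches, the repeated block showed the opposite picture in NT. The window from 501 to 600 held 2222 and 2097 stops in NT, 2103 and 1723 in DMS, and 2752 and 2322 in CMCT. The window from 601 to 700 held 2987 and 2936 in NT, 3133 and 3110 in DMS, and 4942 and 2785 in CMCT. Neither window passed the test (log2 fold changes of -0.77 ± 0.35 and -0.52 ± 0.35 for DMS). Only 53.0% and 18.0% of their positions are found once in mm9, and RNA-seq had its lowest count of the measured windows, 163 reads, at 601 to 700. What other copies of the repeat added to these counts was not tested.

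The stretch at the middle of the RNA ran from 3401 to 3700. Its central window, 3501 to 3600, held 69 and 40 stops in NT, 326 and 286 in DMS, and 585 and 329 in CMCT. Both reagents were above NT in each replicate, with log2 fold changes of 1.97 ± 0.25 for DMS (adjusted p = 0.0102) and 2.18 ± 0.25 for CMCT (adjusted p = 0.0188). In the 11 other fits, this window was called in 10 with DMS and 9 with CMCT, 3401 to 3500 in 7 and 3, and 3601 to 3700 in 8 and 5. The single DMS window at 1301 to 1400 was called in 4. Adenine made up 41.7% of the 300 bases from 3401 to 3700, 38.8% of positions 101 to 500 and 45.5% of positions 701 to 1100. Over 66 windows, the Spearman correlation of the adenine share with the log2 fold change was 0.41 for DMS and 0.44 for CMCT, and that of the cytosine share was -0.42 and -0.50. Adenine is not among the bases that CMCT is known to react with most. The part of base content in the result was not tested.

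The window from 4901 to 5000 was the exception. It held 5933 and 4625 stops in NT, 3873 and 2233 in DMS, and 4614 and 1449 in CMCT, which was 14.3% and 19.2% of the Malat1 stops in NT but 5.98% and 5.05% in DMS and 6.59% and 2.99% in CMCT. The log2 fold change was -1.81 ± 0.45 with CMCT (adjusted p = 0.043) and -1.37 ± 0.45 with DMS, which did not pass (adjusted p = 0.073). The CMCT call was present in 3 of the 11 other fits with windows of 100 nt.

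**Figure D2:**
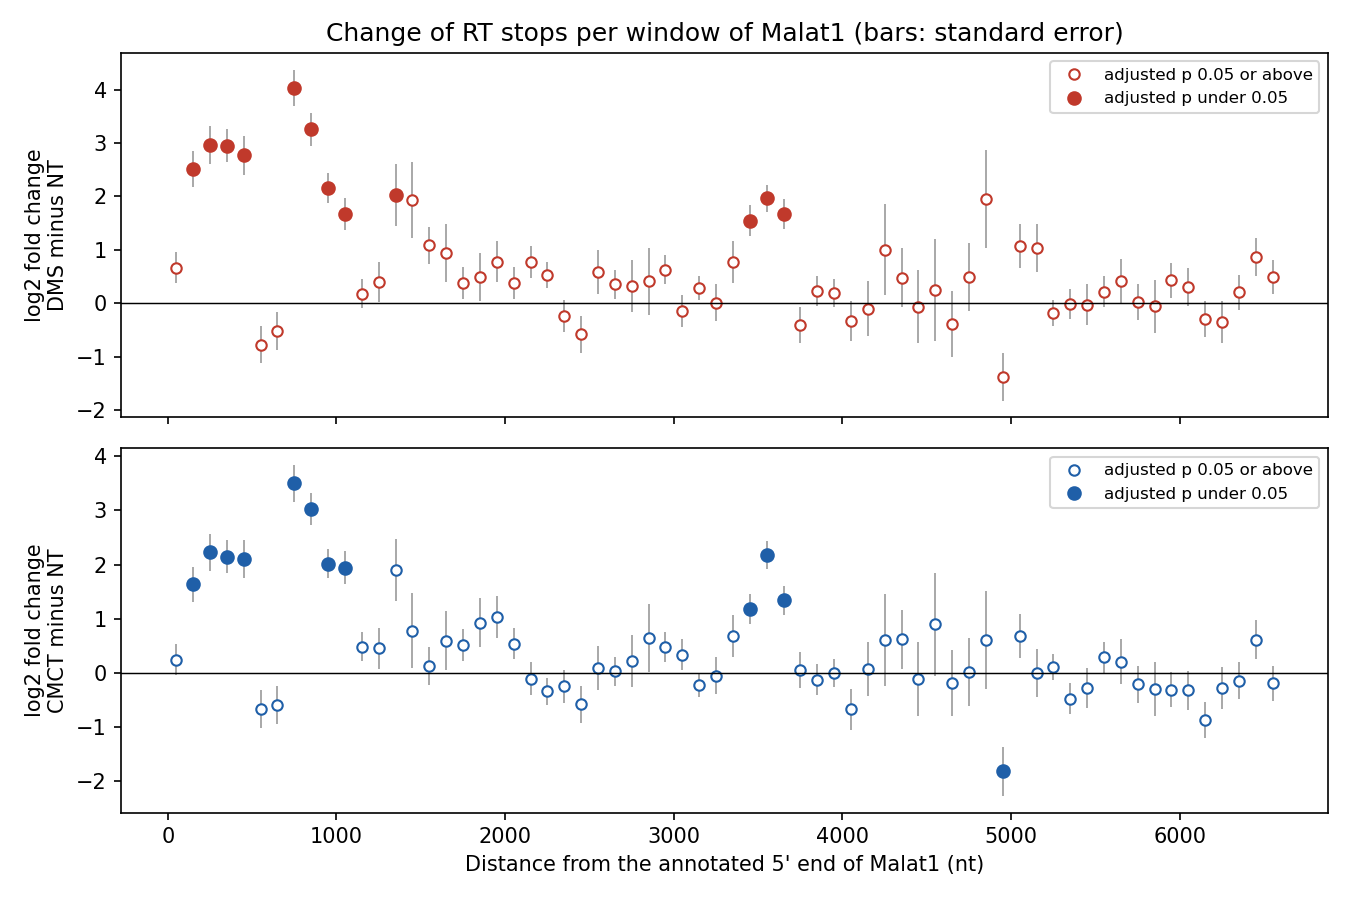
Log2 fold change of RT stops per 100 nt window of Malat1 for DMS minus NT and CMCT minus NT with its standard error, against the distance from the annotated 5′ end in nt, with filled points for an adjusted p under 0.05. The filled points above 0 lie at 101 to 500, 701 to 1100 and 3401 to 3700 for both reagents and at 1301 to 1400 for DMS, and the single one below 0 is CMCT at 4901 to 5000.

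The stops of the NT libraries, which mark halts of reverse transcriptase without a reagent, were concentrated on few positions. The 10 highest positions held 12.5% and 19.9% of the NT stops, 6.98% and 4.47% of the DMS stops, and 7.07% and 11.02% of the CMCT stops. The 5 positions with most NT stops are shown with the 12 bases on either side, from mm9, read as RNA in the sense of Malat1 with the stop base in capitals.
Position 4917 (chr19:5797743-5797767): gagggaggggggGauggggcuuacu
Position 4922 (chr19:5797738-5797762): agggggggauggGgcuuacuuguuc
Position 591 (chr19:5802069-5802093): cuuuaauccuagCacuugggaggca
Position 2831 (chr19:5799829-5799853): ugaggcgggcagCuaaggaagguug
Position 4965 (chr19:5797695-5797719): ccacacagaaugCaggugucuugac
Position 4917 is the last base of a run of guanine, and position 4922 lies 5 bases behind it in a shorter one. Position 4917 had 1235 and 1548 stops in NT, 202 and 210 in DMS, and 482 and 94 in CMCT. Position 4922 had 1037 and 1734 in NT, 152 and 552 in DMS, and 374 and 116 in CMCT. At both, each NT library was above every treated library, an order that the choice by NT stops favours. Position 591 is in the repeated block, with 334 and 321 stops in NT, 190 and 167 in DMS, and 275 and 264 in CMCT, nearly equal between replicates. At position 2831 the replicates of a treatment differed more than the treatments, with 467 and 61 stops in NT, 895 and 42 in DMS, and 311 and 672 in CMCT. Position 4965 had 437 and 57 in NT, 533 and 52 in DMS, and 296 and 94 in CMCT, so replicate 1 was higher in every treatment.

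Adenine took more of the stops in DMS than in NT, and uracil more in CMCT, but not to the same degree in both replicates. Adenine carried 11.2% and 16.0% of the Malat1 stops in NT, 28.1% and 52.8% in DMS, and 11.9% and 11.2% in CMCT. Uracil carried 33.5% and 28.6% in NT, 29.4% and 15.9% in DMS, and 46.4% and 49.9% in CMCT. The adenine share was highest in both DMS libraries and the uracil share highest in both CMCT libraries. Cytosine, the other target of DMS, carried 35.0% and 22.9% in NT but 29.8% and 17.9% in DMS, so the DMS shares lay within the NT range or below it. The shares of the 4 bases in a library have a fixed sum, so a higher share of adenine lowers the others. Guanine carried 20.4% and 32.5% in NT, 12.6% and 13.4% in DMS, and 16.6% and 14.8% in CMCT.

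**Figure D3:**
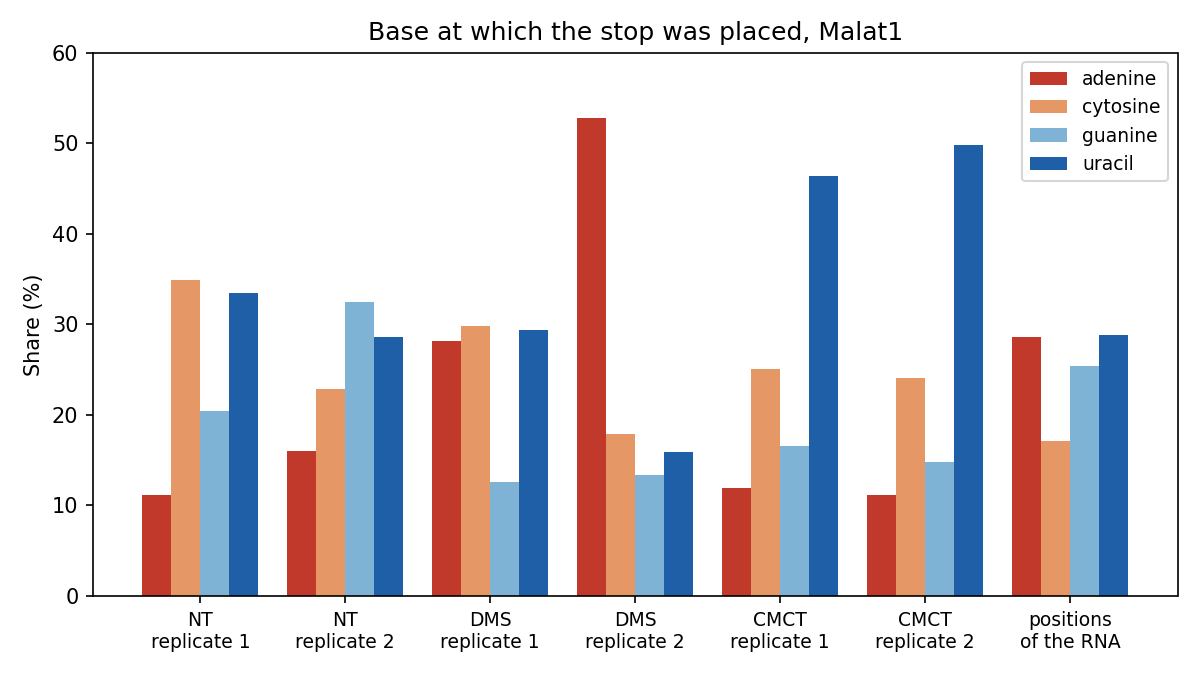
Share (%) of the RT stops of Malat1 placed on adenine, cytosine, guanine and uracil in each of the 6 libraries, with the share of each base among the positions of the RNA at the right. Adenine reaches 28.1% and 52.8% in the DMS replicates and stays at 16.0% or below in the other libraries, and uracil reaches 46.4% and 49.9% with CMCT.

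The DMS replicates thus differed by 26.2 percentage points of adenine at positions found once in the genome. Among the 92 genes with at least 10000 such stops in each DMS library the median difference was 5.69 points, and in 5 genes replicate 2 exceeded replicate 1 by more than in Malat1. In 1 other gene the difference was larger in the opposite direction, at -52.0 points. Across all genes, adenine took 31.8% and 39.3% of the DMS stops at these positions. The log2 ratio of DMS over NT stops, scaled to the mean of the transcript, averaged 1.65 at adenine, 0.07 at cytosine, -0.06 at guanine and -0.30 at uracil. The mean of adenine and cytosine exceeded that of guanine and uracil by 1.28, by 0.94 in replicate 1 and by 1.38 in replicate 2. For CMCT the averages were 0.65 at uracil, 0.04 at guanine, -0.11 at adenine and -0.30 at cytosine, and guanine and uracil exceeded the others by 0.56, by 0.48 in replicate 1 and by 0.47 in replicate 2. By these ratios the preference rested on adenine for DMS and on uracil for CMCT. Of the 50 positions with the highest DMS ratio, 47 were adenine, and of the 50 with the highest CMCT ratio, 32 were uracil, 9 cytosine, 6 adenine and 3 guanine.

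The positions at which DMS stood out most over NT were chosen among 1058 with at least 50 stops in all and at least 20 in DMS. They are shown for their local sequence, with the stop base in capitals.
Position 3 (chr19:5802657-5802671): agGcauucaggcagc
Position 674 (chr19:5801986-5802010): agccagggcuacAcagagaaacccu
Position 1366 (chr19:5801294-5801318): agucccgaagccAguuuggugaagc
Position 1401 (chr19:5801259-5801283): ugaggagccagcAgcagcagugcau
Position 1341 (chr19:5801319-5801343): uaggaagacaggAgcggcagacagg
The 4 internal positions are adenine. Position 674 had 1 and 0 stops in NT, 33 and 192 in DMS, and 3 and 1 in CMCT, and is in the repeated block. Position 1366 had 0 and 0 in NT, 14 and 71 in DMS, and 9 and 3 in CMCT. Positions 1401 and 1341 had no NT stop, with 6 and 77 and with 17 and 64 stops in DMS. All 4 had at least 3 times as many stops in replicate 2 of DMS as in replicate 1.

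The same choice for CMCT, among 980 positions, gave position 3 again and 4 internal positions.
Position 897 (chr19:5801763-5801787): aaagaagcaagaUagaaaaacaaaa
Position 1406 (chr19:5801254-5801278): agccagcagcagCagugcaugguga
Position 2883 (chr19:5799777-5799801): agggcuugggggUuggucuggucca
Position 6431 (chr19:5796229-5796253): gguauaguauguUugauaccagugc
Position 897 had no stop in NT, 12 and 2 in DMS, and 39 and 28 in CMCT. Position 6431 likewise had none in NT, with 11 and 16 in DMS and 17 and 24 in CMCT. Position 2883 had none in NT, 32 and 2 in DMS, and 28 and 21 in CMCT. Position 1406, a cytosine 5 bases behind the adenine at 1401, had none in NT, 7 and 10 in DMS, and 15 and 34 in CMCT. A stop without any NT count has a ratio set by the pseudocount of 1, so these ratios (4.60 to 5.29 on the log2 scale) are no measure of size.

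The 5′ end carried a strong stop of its own. The first 30 bases are shown with position 4, the main stop, in capitals (chr19:5802642-5802671).
5′ end: aggCauucaggcagcgagagcagagcagcg
Position 4 had 171 and 109 stops in NT, 193 and 140 in DMS, and 299 and 184 in CMCT. Position 3 had 0 and 0 in NT, 53 and 68 in DMS, and 115 and 58 in CMCT, and so was present in all 4 treated libraries and in neither control. It had been picked for its ratios over NT. Up to position 6600, 2455 positions (37.2%) had no stop in either NT library. Position 1 had 0 and 0 in NT, 7 and 23 in DMS, and 3 and 5 in CMCT. In the tests by window, the first 100 nt did not pass for either reagent.

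To compare positions, the log2 ratio of treated over NT stops was set to 0 where negative, capped at its 90th percentile and expressed relative to that cap, which gives a reactivity from 0 to 1. Of the 2 reagents, the larger value was taken. Of the 6957 positions before the last 25 nt, 4635 (66.6%) had a reactivity above 0, and 1911 (27.5%) were highly reactive, above 0.7. These include 357 positions behind 6600 with hardly any stops, of which 24 were above 0 and 1 was highly reactive. Up to position 6600 the shares were 69.9% and 28.9%. There, 2455 positions (37.2%) had no stop in either NT library, among them 999 (52.3%) of the 1910 highly reactive ones, and the ratio at such positions depends on the pseudocount of 1. The share of highly reactive positions was 45.7% for adenine, 27.7% for uracil, 16.8% for guanine and 12.7% for cytosine. From each reagent alone, 1179 positions were high with DMS and 1113 with CMCT. Positions at or above the 90th percentile of a reagent score 1 by construction. These counts, and the shares of highly reactive positions over the whole RNA, are therefore set in large part by the scaling. The profiles of the replicates had a Pearson r of 0.80 over 1390 windows of 10 nt and a Spearman rho of 0.79. Windows overlap, and each replicate was set against its own NT library. With the NT libraries exchanged r was 0.62, and over single positions it was 0.55. The raw profiles had an r of 0.79 between the NT replicates, 0.76 between those of DMS and 0.88 between those of CMCT (log2 of the count + 1, 6957 positions).

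By 100 nt windows, the mean reactivity from both replicates together was highest at 801 to 900 (0.817, with 0.752 and 0.745 in the single replicates), at 701 to 800 (0.782, with 0.669 and 0.659) and at 1301 to 1400 (0.779, with 0.635 and 0.823). The order differed between replicates, and replicate 2 was highest at 1301 to 1400. Within the part of the RNA that was read, the value from both together was lowest at 4101 to 4200 (0.111, with 0.145 and 0.058), at 4001 to 4100 (0.162, with 0.189 and 0.122) and at 4901 to 5000 (0.191, with 0.239 and 0.294). In each replicate alone, other windows were lower than 4901 to 5000. The stretch from 4001 to 4900 also had few stops and differed between replicates of every treatment. It held 5.19% and 2.00% of the stops in NT, 5.15% and 2.54% in DMS, and 5.85% and 2.70% in CMCT, so replicate 2 was lower by 1.37, 1.02 and 1.12 on the log2 scale. RNA-seq had 14296 reads there. The antisense gene Gm20417 overlaps most of this stretch.

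Predicted pairing and reactivity went together weakly. For positions up to 6600, the probability of being unpaired was computed from sequence alone with RNAplfold, a local folding program. Mean reactivity was 0.296 at the 1780 positions with a probability below 0.2 and 0.577 at the 1032 positions at 0.8 or above, and it rose in each bin between them, through 0.401, 0.433 and 0.451. The share of highly reactive positions went from 16.8% in the lowest bin to 45.3% in the highest. For DMS at adenine and cytosine alone, the mean was 0.266 in the lowest and 0.600 in the highest bin, and for CMCT at guanine and uracil it was 0.230 and 0.443. With CMCT the 3 bins between held 0.356, 0.348 and 0.348, so there was no steady rise through them. The Spearman correlation over positions was 0.23 for the larger value, 0.31 for DMS at its own bases and 0.17 for CMCT at its own bases. Within a single base it was 0.20 for DMS at adenine, 0.01 for DMS at cytosine, 0.08 for CMCT at uracil and 0.24 for CMCT at guanine. Predicted pairing depends on base composition as the reactivity does, and positions of 1 RNA are not independent.

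**Figure D4:**
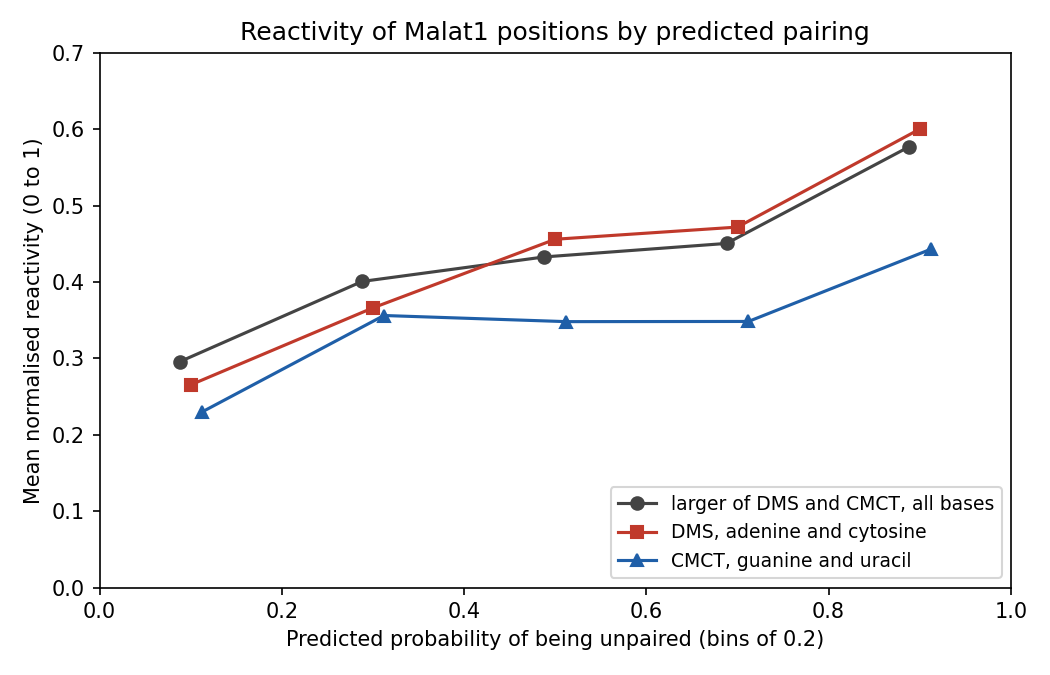
Mean normalised reactivity (0 to 1) of Malat1 positions up to 6600 in bins of the predicted probability of being unpaired, for the larger of DMS and CMCT at all bases, DMS at adenine and cytosine, and CMCT at guanine and uracil. The mean rises from 0.296 to 0.577, from 0.266 to 0.600 and from 0.230 to 0.443 from the lowest to the highest bin, and the 3 middle bins of CMCT are nearly level.

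Runs of 1 base show the reagents on a nearly uniform template. A run was taken where at least 9 of 10 bases were equal, and 11 were found, 3 of adenine, 7 of uracil and 1 of guanine. Those in the part that was read and on which the comparison turns are shown with the run in capitals.
Adenine run at 693 to 704 (chr19:5801968-5801979): gucuugAAAAAACAAAAAgguuag
Adenine run at 900 to 909 (chr19:5801763-5801772): agauagAAAAACAAAAuggaag
Uracil run at 1820 to 1830 (chr19:5800842-5800852): uguaggUUUUUCUUUUUcagggu
Uracil run at 3301 to 3312 (chr19:5799360-5799371): ggaaacCUUUUUUUUUCUguagac
Guanine run at 4907 to 4917 (chr19:5797755-5797765): uguggaGGGAGGGGGGGaugggg
The adenine run at 693 had 7 and 14 stops in NT, 129 and 264 in DMS, and 77 and 49 in CMCT. That at 900 had 18 and 14 in NT, 209 and 223 in DMS, and 189 and 117 in CMCT. In both runs every treated library was above NT, DMS most, and the mean DMS reactivity was 0.925 and 0.900 beside 0.393 and 0.306 for CMCT.

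The uracil run at 1820 had 220 and 59 stops in NT, 321 and 70 in DMS, and 445 and 394 in CMCT. The one at 3301 had 56 and 41 in NT, 27 and 26 in DMS, and 189 and 79 in CMCT. Both were highest in CMCT, with a mean CMCT reactivity of 0.555 and 0.417 and a mean DMS reactivity of 0.119 and 0.0536. Of the other uracil runs, that at 3181 had only 6 to 11 stops in any library. The uracil run at 4938, behind the guanine run that ends at 4917, had 554 and 323 stops in NT, 364 and 275 in DMS, and 877 and 289 in CMCT. Its mean CMCT reactivity was 0.0928. The guanine run had 1444 and 1666 stops in NT, 261 and 244 in DMS, and 548 and 106 in CMCT. Its mean DMS reactivity was 0.115, and it had no reactivity above 0 for CMCT.

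At the 3′ end, stops and reads ended before the annotated end of the gene. The 100 nt from 6401 to 6500 held 654 and 533 stops in NT, 1681 and 1536 in DMS, and 1538 and 1692 in CMCT. From 6501 to 6600 there were 282 and 274 in NT, 562 and 615 in DMS, and 489 and 418 in CMCT, most of them before 6561. From 6601 to the end of the adenine tract at 6685 the libraries had 3 to 5 stops each, 21 in all, and from 6686 to 6957 they had 2 to 9 each, 36 in all. RNA-seq fell at the same place, with 2192 reads at 6401 to 6500, 1846 at 6501 to 6600, 19 at 6601 to 6685 and 41 behind it. Of 1936 plus-strand alignments that ended at or behind 6501, 1873 ended by 6600, 39 between there and 6685, and 24 later. The adenine-rich tract is shown with 6 bases on either side, with the tract in capitals (the tract at chr19:5795987-5796000).
3′ tract: uagcuuUAAAAAAAAAAAAGcaaaag
The tract from 6672 to 6685 had 1 stop in all 6 libraries and the uracil run at 6605 to 6614 had 5, so no reactivity could be read at either. The 2000 nt behind the annotated end held 85 RNA-seq reads, and the 2000 nt before the 5′ end held 21.

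**Figure D5:**
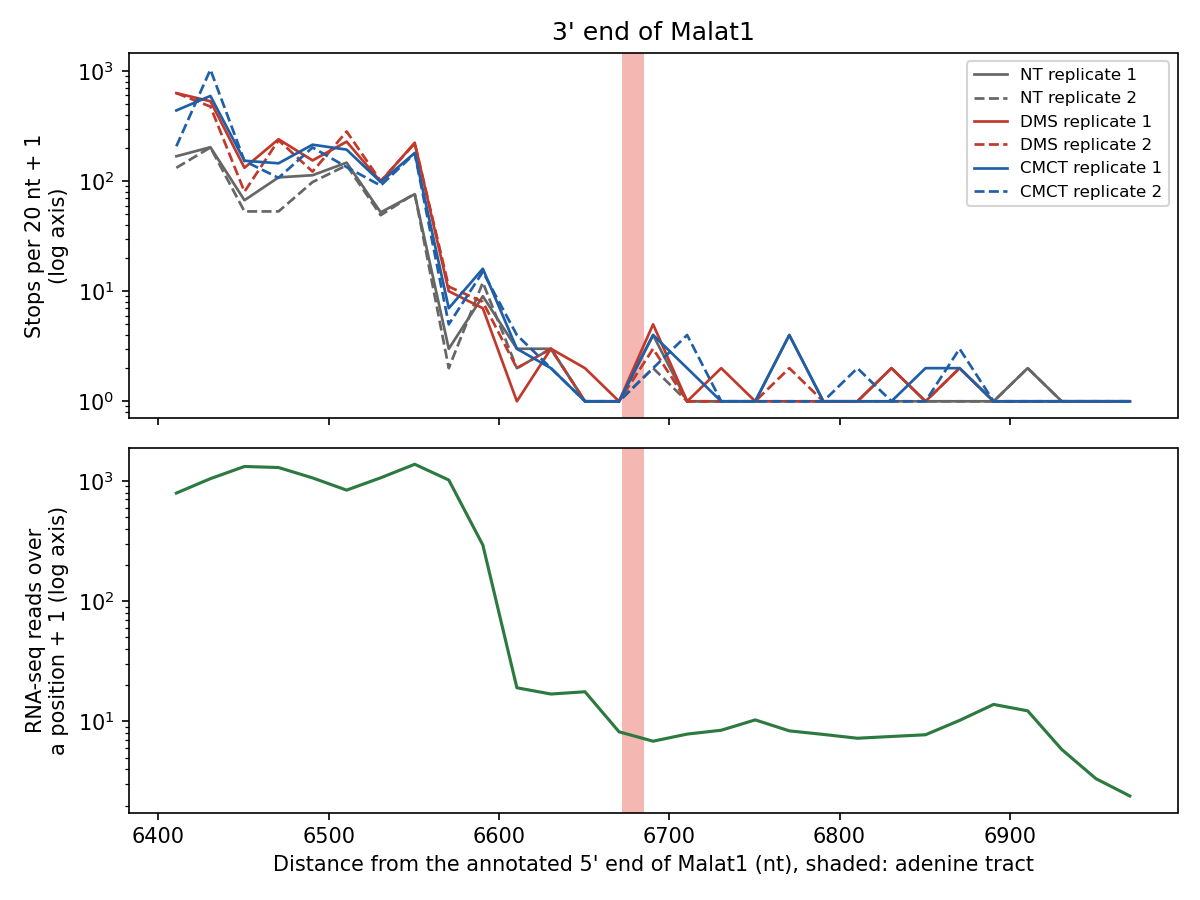
RT stops per 20 nt plus 1 in the 6 libraries and mean RNA-seq reads over a position plus 1, both on log axes, from position 6401 to the 3′ end of the annotated Malat1 gene, with the adenine tract at 6672 to 6685 shaded. All libraries fall between 6541 and 6620, before the tract, and hold 21 stops in all from 6601 to 6685.

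The number of stops that belong to a spliced transcript differed between the junctions. A stop within the 24 nt before a junction comes from a read that crosses it, and can be set beside the stops at the same positions of the unspliced transcript. ENSMUST00000173314, which joins 5668 to 6887, had none, while the unspliced transcript had 230 and 57 stops there in NT, 346 and 184 in DMS, and 235 and 144 in CMCT. ENSMUST00000174808, which joins 6283 to 6887, had 4 stops in all, beside 2341. Both would join Malat1 to sequence behind the adenine tract. ENSMUST00000173499, which joins 434 to 706 and so leaves out the repeated block, had 0 and 0 spliced stops in NT, 21 and 77 in DMS, and 6 and 9 in CMCT, beside 4 and 1, 50 and 112, and 78 and 27 unspliced ones. Its spliced form was thus seen in all 4 treated libraries and not in NT, where the region had few stops of any kind. ENSMUST00000173523, with a gap of 42 nt from 606 to 649 inside the repeated block, had 457 and 345 spliced stops in NT, 660 and 513 in DMS, and 899 and 430 in CMCT, beside 1455 and 1476, 941 and 779, and 1642 and 1233. Here reads from other copies of the repeat cannot be told apart from those of Malat1.

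A check of positions shared by 2 transcripts bears on the independence of the replicates. Of 4323 position and treatment pairs with stops on both the unspliced and a spliced transcript, 1103 had replicate counts that differed between the transcripts. In 608 of these the sum of both replicates was equal, and in 607 a single stop had moved from one replicate to the other. The deposited combined tables were equal to the sum of the replicates at all 9335 positions of the 5 transcripts. How single stops came to change replicate was not tested.

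Long noncoding RNAs and genes for proteins of speckles, paraspeckles and the 3′ processing of Malat1 were compared in the same fits. The stops of a protein gene are those of its transcripts, and where any of these RNAs lie in the cell was not tested. Of 16 genes listed as nuclear long noncoding RNAs 8 were tested, and the list also holds host genes of small nucleolar RNAs (Gas5 and the Snhg genes). With DMS 0 were higher and 4 lower, with a median log2 fold change of -1.04, and with CMCT 0 were higher and 4 lower, with a median of -0.81, beside medians over all genes of 0.01 and 0.11. Gas5, Rian and Tsix were lower with both reagents, Snhg1 with DMS alone and Snhg12 with CMCT alone. Over all genes, 13.8% were higher and 12.5% lower with DMS, and 15.0% and 13.9% with CMCT. Malat1, at 0.31 and 0.38, is not one of these 8. Neat1 had 16153 and 20655 stops in NT, 20635 and 29723 in DMS, and 20067 and 13851 in CMCT, and its log2 fold change was -0.04 with DMS (adjusted p = 0.94), the highest of the list. Tsix, the antisense partner of Xist, was the lowest with both reagents, with 4854 and 4827 stops in NT, 1975 and 1984 in DMS, and 1934 and 1858 in CMCT, with log2 fold changes of -1.77 and -1.83 (adjusted p = 0.00146 and 0.00132), but only 3.34% of its stops were at positions found once. That share was 34.8% in Neat1, 17.5% in Rian and 6.82% in Meg3. In the other tested genes of the list it went from 68.3% in Snhg3 to 96.2% in Snhg12. Snhg1, a host gene of small nucleolar RNAs, fell by 1.44 with DMS (adjusted p = 0.00978) and stood at 0.11 with CMCT (adjusted p = 0.84). For DMS minus CMCT, 0 of the list were higher and 1 was lower, beside 2.47% and 6.79% of all genes (median -0.12, beside -0.05 over all genes). Snhg1 was the lowest, at -1.55 (adjusted p = 0.0184), where Neat1 was the highest at 0.64 (adjusted p = 0.33).

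Of 19 genes of nuclear speckle proteins 18 were tested, with 0 higher and 5 lower in DMS (median -0.49) and 2 higher and 3 lower in CMCT (median 0.06), beside the same shares over all genes, which for CMCT are close to those of the list. Srsf2, a splicing factor that marks speckles, was lowest with both, with 83940 and 82647 stops in NT, 26737 and 26011 in DMS, and 30588 and 28265 in CMCT, with log2 fold changes of -2.13 and -1.98 (adjusted p = 0.00246 and 0.00377). Of its stops 8.97% were at positions found once. In the other genes lower with DMS that share was 10.6% for Srsf10, 21.2% for Srsf5, 41.6% for Srrm2 and 87.4% for Ddx39b. The other genes lower with CMCT were Srsf10 and Clk1. Srrm1, a splicing coactivator, was highest with CMCT at 1.07 (adjusted p = 0.00454), with 912 and 669 stops in NT and 2923 and 1833 in CMCT. U2af1, the subunit that reads the 3′ splice site, was highest with DMS at 0.25 (adjusted p = 0.45). For DMS minus CMCT, 0 were higher and 2 lower, beside 2.47% and 6.79% of all genes (median -0.49). The values ran from -1.03 for Srrm1 (adjusted p = 0.015) to 0.49 for Clk1, a kinase of splicing factors (adjusted p = 0.37). Of the stops of U2af1 and Clk1, 6.77% and 11.7% were at positions found once, beside 68.3% for Srrm1.

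None of 7 paraspeckle genes passed the edgeR test in any comparison, with medians of -0.10 for DMS, 0.41 for CMCT and -0.51 for DMS minus CMCT. Over all genes, 13.8% were higher and 12.5% lower with DMS, 15.0% and 13.9% with CMCT, and 2.47% and 6.79% for DMS minus CMCT. Their log2 fold changes ranged from -0.83 for Sfpq to 0.31 for Cpsf6 with DMS, from 0.00 to 0.65 for the same genes with CMCT, and from -0.83 to -0.34 between the reagents. The list of 13 genes for the 3′ processing of Malat1 held those of the RNase P and RNase Z cuts and Trnt1, which belongs to neither enzyme. Of these 13 genes 7 were tested, Trnt1 among them, with medians of -0.10, 0.23 and -0.42 in the same order. Rpp40, a protein subunit of RNase P, was the only one past the threshold, at -1.36 with CMCT (adjusted p = 0.0274), beside the same shares over all genes. Of the stops of Rpp40 3.99% were at positions found once. With DMS this list ranged from -0.81 for Rpp40 to 0.38 for Pop5, another subunit, with CMCT the highest was Pop1 at 0.67, and for DMS minus CMCT it ran from -1.11 for Pop1 to 0.54 for Rpp40. Elac2, the RNase Z that cuts behind the tRNA-like element, had 1153 and 719 stops in NT, 1068 and 664 in DMS, and 1772 and 1286 in CMCT, with log2 fold changes of -0.55 and 0.23 that did not pass (adjusted p = 0.15 and 0.56).

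The genes whose level over the 6 libraries was most like that of Malat1 were Atp5j, a subunit of mitochondrial ATP synthase, with a Pearson r of 0.992 on log2 CPM, Ube2q1 (0.989), Sap30 (0.986), Gnpat (0.983) and Nde1 (0.983). They were taken from 4141 genes with at least 1 stop per base and with most of their stops at positions found once. With 6 libraries and so many genes, values of this size are a description of these libraries.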

How the data were processed

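RT stops were measured by CIRS-seq in 2 libraries each of NT, DMS and CMCT, and RNA-seq in 1 library. The authors deposited raw counts of RT stops per transcript position, with reads mapped to an mm9 variant that carries E14 single-nucleotide variants, and a combined count table per treatment. The submitters' processing notes name Bowtie 1.0.0, TopHat2 2.0.6, bedtools 2.17.0 and FastQC 0.10.1. The deposited RNA-seq values are single alignments. The positions are those of the modified base, and the last 25 nt of a transcript cannot be read. Malat1 and the gene lists were chosen with earlier results of these data known.

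Each genomic position was counted once per gene of GENCODE vM1, with the larger count where isoforms differed, and sequences were read from mm9, without the E14 variants. Positions were called found once when the next 25 bases occurred once in mm9. Genes and windows of 100 nt were tested over all genes with edgeR 4.0.16 in R 4.3.3 (TMM, filterByExpr, quasi-likelihood test, 1 fit over 6 libraries, Benjamini-Hochberg adjustment at 0.05), and tested on simulated data. Total stops set the depth. With 2 libraries per treatment, a single gene seldom passes for a small change. In simulated counts for DMS over NT, 17% of 2-fold and 89% of 4-fold changes of genes passed. For windows these shares were 3% and 58%. Reactivity used a pseudocount of 1. Pairing was predicted with RNAplfold of ViennaRNA 2.7.2 (window 200, span 150). Other steps used Python 3.11.15, numpy 2.4.6, pandas 2.3.3, scipy 1.17.1, numba 0.67.0 and matplotlib 3.10.9. Genes named from the lists were those with the highest and lowest change in each comparison and Neat1. Positions named were the 5 with most NT stops and the 5 with the highest ratio for each reagent, and windows the 5 with the largest change among those past the threshold; Elac2, Actb and the windows and stretches without a call were named after their values were seen. Alternatives were DESeq2 1.42.0, its size factors, no filter, a replicate block, each library left out, positions found once, other window sizes and other settings of reactivity and folding. Not analysed here were Malat1 transcripts outside the tables.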

Additional observations from a re-analysis of the deposited data

How the results depend on the processing

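The level of Malat1 passed the threshold in no comparison under the 12 alternatives of each. The log2 fold change ranged from 0.04 to 0.54 for DMS over NT (adjusted p from 0.36 to 0.97) and from 0.18 to 0.57 for CMCT over NT (adjusted p from 0.38 to 0.84). DMS minus CMCT changed sign, to 0.0363 with the DESeq2 size factors in edgeR and 0.0363 in the DESeq2 Wald test and to 0.13 at positions found once, and ranged from -0.33 to 0.19 when single libraries were left out. The replicate numbers were not taken to pair the libraries, since only 1 of the 3 correlations was over 0.1 (the correlation of same-numbered deviations from the group means was 0.553 for NT and DMS, 0.0175 for NT and CMCT, and -0.102 for DMS and CMCT). With the replicate number as a block, Malat1 stood at 0.30, 0.40 and -0.09, and calls over all genes went from 3485 to 5616 for DMS over NT, from 3827 to 5030 for CMCT over NT and from 1223 to 2420 for DMS minus CMCT. Called windows of Malat1 numbered 15 and 12 with the block (22.7% and 18.2%, beside 23.9% and 18.6% of all windows), and 4901 to 5000 was then lower with DMS too (-1.44, adjusted p = 0.0383). The DESeq2 Wald test called 5595 and 2674 genes in the first and last of these, and at positions found once 1770 and 1145 genes passed for DMS and CMCT over NT. With the DESeq2 size factors in edgeR, 657 genes were called for DMS minus CMCT. With single libraries left out, calls ranged from 1719 to 4619, from 1600 to 4402 and from 428 to 1720 in the 3 comparisons. They fell by more than 1.5 times without replicate 2 of NT in each comparison (517 in the last), without replicate 1 of NT for CMCT over NT (2503) and DMS minus CMCT (551), and without replicate 1 of DMS for DMS over NT (1903) and DMS minus CMCT (428).

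Called windows of Malat1 numbered 38 and 23 in DMS and CMCT with windows of 50 nt (28.8% and 17.4%, beside 19.8% and 13.6% of all such windows) and 5 and 5 with windows of 200 nt (15.2% in each, beside 15.4% and 11.5%), and ranged from 0 to 12 and from 0 to 9 when single libraries were left out. With a pseudocount of 5 the base preference was 0.79 for DMS and 0.37 for CMCT, and at positions with at least 20 stops 1.66 and 0.86. It ranged from 0.94 to 1.38 and from 0.47 to 0.48 with single replicates, and was 0.57 for CMCT at positions found once. The share of highly reactive positions was 26.3% with a pseudocount of 5, 20.0% with the cap set over positions above 0, 16.9% for DMS alone, 16.0% for CMCT alone and 27.7% to 28.5% with single replicates. The replicate correlation of reactivity was 0.55 over single positions, 0.82 with a pseudocount of 5 and 0.62 with the NT libraries exchanged. With any overlap counted, RNA-seq gave 12015 reads per kilobase. The correlation with predicted pairing was 0.22 with a folding window of 100 and span of 80, 0.31 for DMS and 0.17 for CMCT at their own bases, and 0.219 to 0.224 with single replicates. The mean correlation of RNA-seq with stops was 0.00 with windows of 100 nt, 0.04 with 50 nt and -0.01 with 200 nt. Few stops were counted behind position 6600, so values there could not be read, and where NT had no stop the reactivity depends on the pseudocount.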
